A study of Mus musculus with 2 samples.

Results

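Tg7 insulin cells with a higher share of Ins1 transcripts were described here across genes. Mice have 2 insulin genes, Ins1 and Ins2, and the members are the barcodes of the Tg7 library in which Ins1 made up at least 2.3% of all UMIs (unique molecular identifiers, each standing for 1 captured RNA molecule). Members were thus chosen by their Ins1 share, together with limits on the other hormones and on quality. The rule asked for at least 1000 UMIs, at most 20% mitochondrial UMIs, Ins1 plus Ins2 at 10% of UMIs or more, and low levels of the other islet hormones: Gcg (glucagon) under 4%, Sst (somatostatin) under 0.3% and Ppy (pancreatic polypeptide) under 1%. It took 139 cells, which is 12.4% of the 1123 Tg7 barcodes and part of 1978 barcodes in the series. These cells are called Tg7 Ins1-keeping cells. They were set against 338 Tg7 Ins1-low cells, which met every other limit but lay below the Ins1 limit, and against 471 Wild-type insulin cells, taken with the same limits and none on Ins1.

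Islets came from Tg7 males aged 12 weeks, whose β-cells overexpress miR-7a2 (a microRNA precursor), and from their Wild-type littermates, both on C57Bl6. Per the study's text, animals of both genotypes also carried a rat Ins2-Cre transgene and a Rosa26 tdTomato reporter that marks β-cells. The study uses Tg7 as a model in which β-cells lose their identity and diabetes follows. Each genotype is 1 library, the number of mice behind it and the promoter of the miR-7 transgene are not given in the sources used here, and genotype and library cannot be told apart. With 1 library per genotype no difference has a replicate check, no p-value was computed, and the ranges in brackets are 95% intervals for counting error alone.

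In the mouse, Ins1 and Ins2 both encode proinsulin, and their transcription in mature β-cells depends on factors such as Pdx1, Neurod1 and Mafa. When β-cells lose identity they lower insulin, Mafa, the glucose transporter Slc2a2 and the peptide Ucn3, and genes of immature endocrine cells can appear. MicroRNAs pair with messenger RNAs through a short seed at their 5′ end and lower the output of those messages. The transgene encodes miR-7a, whose mature sequence is shown because it is the microRNA raised in Tg7 β-cells, with the seed (bases 2 to 8) in capitals.
mmu-miR-7a-5p: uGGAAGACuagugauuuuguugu
RefSeq (GRCm38.p6, a patch release of the files' build mm10) places this sequence at chr7:78888295-78888317 on the plus strand, in Mir7-2. It places the same sequence also at chr13:58392841-58392863 on the minus strand, in Mir7-1. The files list no feature for the mature form, and its level in single cells was not analysed here.

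Of 673 Tg7 insulin cells, 477 met the limits on Gcg, Sst and Ppy, and 139 of these 477 (29.1%, 25.1 to 33.4) passed the Ins1 limit. In the Wild-type library 471 of 506 insulin cells met the limits on the other hormones, and 465 of 471 (98.7%, 97.3 to 99.5) passed the Ins1 limit. A further 45 Tg7 cells passed the Ins1 limit but were left out by Gcg, Sst or Ppy. The Tg7 library held 29931777 UMIs and the Wild-type library 30829078 UMIs in 855 barcodes, with 0 barcodes in common. Median depth was 27216 UMIs in Ins1-keeping cells, 28154.5 in Ins1-low cells and 49623 in Wild-type insulin cells, and the median mitochondrial share was 4.19%, 4.53% and 3.69%. In Tg7 endothelial or macrophage cells, which should hold no insulin and so show the free RNA in the droplets, Ins1 reached at most 0.0448% of UMIs over 31 cells. Scrublet called 14 Tg7 barcodes as doublets, none of them an Ins1-keeping cell.

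Ins1 chose the cells, so its values are a description. The Ins1 share of Ins1-keeping cells ran from 2.31% to 18.5% with a median of 3.64%, against 0.875% in Ins1-low cells and 19.2% in Wild-type insulin cells. Only 4 of 139 Ins1-keeping cells reached 13.4%, the 10th percentile of Wild-type insulin cells, so most cells that kept Ins1 by the rule held less of it than most Wild-type cells. Ins2, the other insulin gene, made up 31.7% of UMIs in Ins1-keeping cells, 26.9% in Ins1-low cells and 44.6% in Wild-type insulin cells (medians), and 38 of 139 Ins1-keeping cells lay within the central Wild-type range of 37.0% to 49.1%. Iapp (islet amyloid polypeptide, a peptide stored with insulin) ran the other way, with medians of 12.1%, 13.5% and 4.66%, and 134 of 139 Ins1-keeping cells lay above the Wild-type range. Ins1 formed 10.8% of insulin UMIs in the median Ins1-keeping cell, 3.40% in the median Ins1-low cell and 30.1% in the median Wild-type cell. The 10 members just inside the limit had Ins1 shares of 2.31% to 2.4%, and the 10 Tg7 cells just outside it 2.21% to 2.3%. Over those 10 cells each, Mafa had 1 UMI inside and 1 outside, Ucn3 13 and 2, Slc2a2 13 and 1, and G6pc2 84 and 39. These counts rest on 10 cells a side. Between the full Tg7 groups the Slc2a2 ratio was 1.08 (0.867 to 1.33), and Ucn3 and Slc2a2 are followed over wider bins of Ins1 below.

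**Figure D1:**
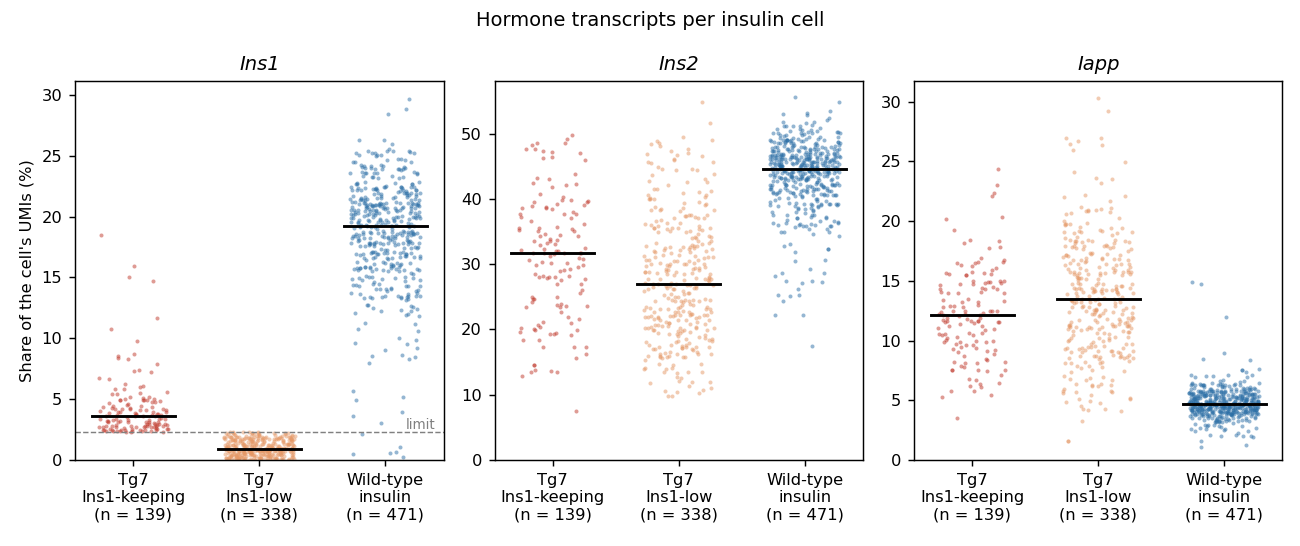
Share of each cell's UMIs (%) taken by Ins1, Ins2 and Iapp in 139 Tg7 Ins1-keeping cells, 338 Tg7 Ins1-low cells and 471 Wild-type insulin cells, with 1 point per cell, black lines at the medians and the Ins1 limit of 2.3% dashed. Most Ins1-keeping cells lie little above the limit and below most Wild-type cells in Ins1, between the other groups in median Ins2, and near the Ins1-low cells in Iapp.

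Set against the β-cell markers, the label held for insulin cells, but the markers of maturity were far below Wild-type. UMIs of Nkx6-1 were found in 120 of 139 Ins1-keeping cells, of G6pc2 in 118, of Pdx1 in 81, of Slc2a2 in 55, of Ucn3 in 49 and of Mafa in 37. These 6 non-hormone markers summed to 729 CPM in Ins1-keeping cells, 582 in Ins1-low cells and 4469 in Wild-type insulin cells. CPM stands here for UMIs per 1000000 non-hormone UMIs and is used for all levels. It leaves out 7 hormone genes (Ins1, Ins2, Iapp, Gcg, Sst, Ppy, Pyy), because they took 48.8% of UMIs in the median Ins1-keeping cell, 42.4% in the median Ins1-low cell and 69.1% in the median Wild-type cell. Of 9 endothelial markers 7 were at 0 UMIs in Ins1-keeping cells, among them Plvap, Kdr and Cdh5, and of 8 macrophage markers 5, among them Cd74 and Lyz2. The macrophage markers summed to 26.9 CPM in Ins1-keeping cells, 33.4 in Ins1-low cells and 80.4 in Wild-type insulin cells, nearly all from C1qa, and the endothelial markers to 10.2, 12.0 and 5.58. The δ-cell markers other than Sst, of which Hhex and Ghsr were at 0 in Ins1-keeping cells, summed to 107, 155 and 18.1 CPM, nearly all from Rbp4. Lymphocyte markers summed to 6.83, 6.13 and 24.7, and neural markers to 7.26, 5.98 and 10.1. Acinar, ductal, stellate and erythroid markers stayed under 4 CPM in all 3 groups.

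The first comparison asked how far Tg7 cells past the Ins1 limit differed in other genes from Tg7 cells below it. The limit cuts a continuous range: 336 of 338 Ins1-low cells held Ins1 UMIs, and 134 had shares of 1.15% to 2.3%. Hardly any gene passed a 2-fold difference: of 8372 genes with at least 100 UMIs over both groups, 4 were at least 2-fold higher in Ins1-keeping cells (0.0478% of genes) and 5 at least 2-fold lower (0.0597%). Both groups come from 1 library and 95% of all gene ratios lay between 0.733 and 1.36. Scaled to all UMIs the split was 1 higher and 11 lower.

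The genes higher in Ins1-keeping cells included a pair of mature β-cell genes. Mafa, which binds insulin promoters and marks maturity, had 90 UMIs in Ins1-keeping cells and 116 in Ins1-low cells, or 38.4 against 17.8 CPM, a ratio of 2.16 (1.62 to 2.87). Ucn3 (urocortin 3), a peptide that marks mature mouse β-cells, stood at 79.8 against 39.7 CPM, a ratio of 2.01 (1.66 to 2.44). The largest ratio in this comparison among genes found in enough cells belonged to Mccc1, a subunit of the mitochondrial enzyme that breaks down leucine, at 23.1 against 8.12 CPM (2.84, 1.91 to 4.23). Cck, the gut hormone cholecystokinin, also passed 2-fold, but 95.8% of its 48 UMIs in Ins1-keeping cells came from 1 cell, and it was named after its values were seen. Without the 7 cells of the highest Ins1 shares the Mafa ratio was 1.79, and with comparison cells of any Gcg, Sst and Ppy level the Ucn3 ratio was 1.5. Scaled to all UMIs they were 1.98 and 1.84.

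Smaller excesses were seen for Faim (an inhibitor of apoptosis, 1.82, 1.44 to 2.3), Rcn3 (a calcium-binding protein of the ER lumen, 1.78, 1.44 to 2.20), the complement gene C3 (1.77, 1.25 to 2.48) and Cpne5 (1.73, 1.22 to 2.45). G6pc2, the islet glucose-6-phosphatase subunit, was 1.27-fold higher (1.17 to 1.39), the granule zinc transporter Slc30a8 1.29-fold higher (1.17 to 1.43) and the serine protease gene Prss53 1.40-fold higher (1.24 to 1.59). Not all β-cell genes ran this way. Abcc8 and Kcnj11, the subunits of the KATP channel that couples glucose to insulin release, stood at ratios of 0.762 (0.688 to 0.844) and 0.697 (0.482 to 0.986), and Slc2a2 at 1.08 (0.867 to 1.33).

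Genes lower in Ins1-keeping cells were led by Gast (gastrin, a stomach hormone that fetal islets also make). It had 59 UMIs in Ins1-keeping cells and 454 in Ins1-low cells, or 25.2 against 69.6 CPM, and was thus 2.76-fold lower (2.10 to 3.69), although 1 Ins1-low cell held 19.6% of that group's UMIs. Apof (an apolipoprotein) was 2.18-fold lower (1.51 to 3.23) and Tspan8 (a tetraspanin of the cell surface) 2.08-fold lower (1.36 to 3.32). Rgs4, which curbs G protein signalling, was 1.91-fold lower (1.45 to 2.55), and Nr4a1, an orphan nuclear receptor induced by stimulation, 1.82-fold lower (1.18 to 2.92). With the Ins1 limit at 1.15% these differences were gone, at ratios of 1.01 for Rgs4 and 1.01 for Nr4a1, and that of C3 was 1.15. With the limit at 4.6% Gast had a ratio of 0.0957, Rgs4 0.258 and Tspan8 0.292. Aldh1a3, an enzyme that marks dedifferentiated β-cells, stood at 87.1 CPM in Ins1-keeping cells and 110 in Ins1-low cells (ratio 0.789, 0.672 to 0.923).

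The other genes past 2-fold were Cenpf (1 against 107 UMIs) and Stmn1 (14 against 221 UMIs), which serve cell division and were singled out after their values were seen. They rested on few cells, as 1 Ins1-low cell held 69.2% of the Cenpf UMIs and 49.8% of the Stmn1 UMIs of its group. Cells with at least 5 UMIs over 9 cell division genes such as Mki67 and Top2a numbered 0 of 139 among Ins1-keeping cells, exact interval up to 2.62%, 3 of 338 among Ins1-low cells (0.888%, 0.183 to 2.57) and 5 of 471 among Wild-type insulin cells (1.06%, 0.346 to 2.46). In the proliferation list 10 of 23 measured genes were at least 2-fold lower in Ins1-keeping than in Ins1-low cells, with a median log2 ratio of -0.73. That median was 0.09 with the Ins1 limit at 1.15%, and 0.01 without the cells that held division genes. Over Wild-type insulin cells 8 of 20 members were 2-fold lower and 0 higher, with a median of -0.58 that was 0.11 when scaled to all UMIs.

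The β-cell lists and most others sat close to the background in this comparison. The background over 11597 genes with at least 20 UMIs was a median log2 ratio of 0.00 with 0.63% of genes 2-fold higher and 1.65% 2-fold lower. The median was 0.08 for 24 genes of β-cell maturity and glucose sensing (1 higher, 0 lower), 0.03 for 24 β-cell transcription factors (1 higher, 0 lower), 0.08 for 30 genes of ER folding (0 either way), -0.07 for 15 immature and progenitor genes (1 higher, 1 lower), -0.01 for 34 epithelial genes (0 higher, 1 lower) and -0.02 for 25 known or proposed miR-7 targets (0 either way). Apart from Mafa, the core factors named here stayed within 2-fold of Ins1-low cells. The ratio was 1.26 (1.01 to 1.56) for Pdx1 and 1.22 (1.10 to 1.36) for Insm1, both with intervals above 1. It was 1.03 (0.921 to 1.15) for Nkx6-1, 0.867 (0.760 to 0.986) for Neurod1 and 0.944 (0.864 to 1.03) for Pax6.

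**Figure D2:**
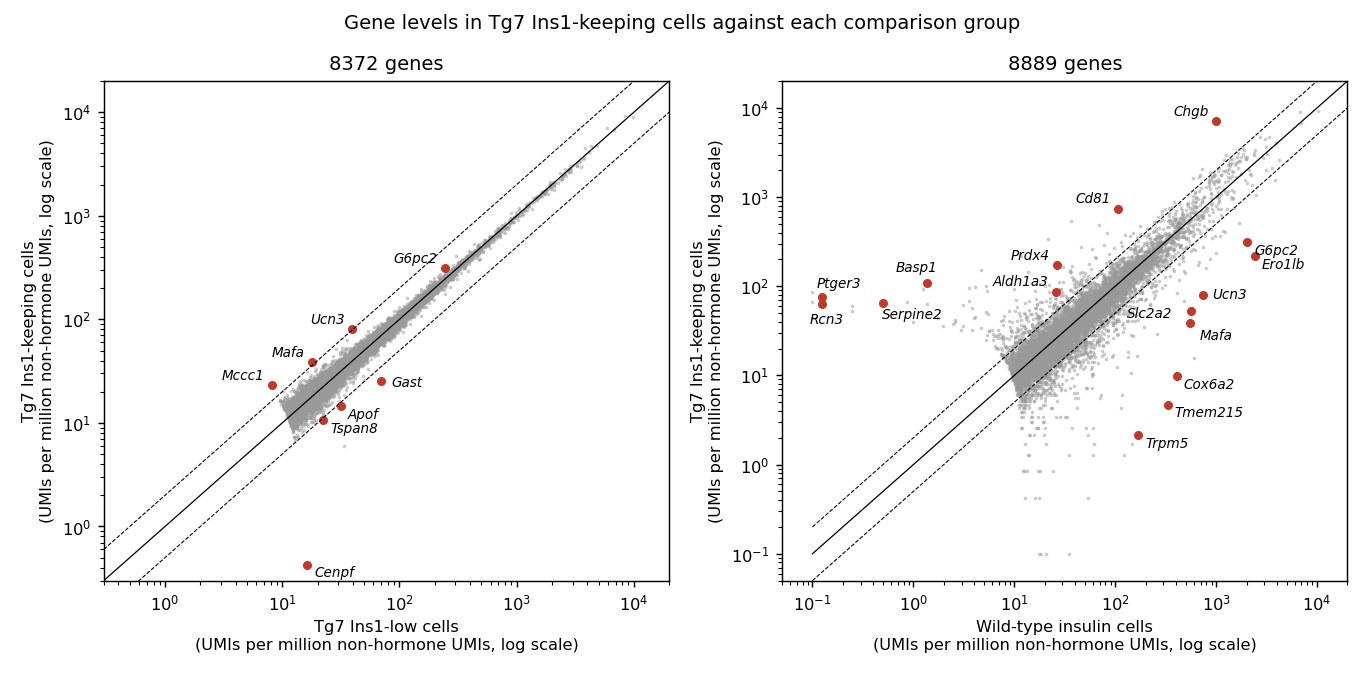
Level of each gene in Tg7 Ins1-keeping cells (vertical, CPM, of non-hormone UMIs, log scale) against Tg7 Ins1-low cells (left, 8372 genes) and Wild-type insulin cells (right, 8889 genes). The solid line marks equal levels, dashed lines 2-fold differences, red points named genes, and values under 0.1 are drawn at 0.1. Genes hug the line on the left, with 4 at least 2-fold higher and 5 lower, and scatter widely on the right, with 338 higher and 555 lower.

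The second comparison set the same cells against Wild-type insulin cells. It shares the Ins1-keeping cells with the first comparison, so the 2 are given side by side and not as independent results. Of 8889 genes, 338 were at least 2-fold higher in Ins1-keeping cells (3.8%) and 555 at least 2-fold lower (6.24%), and 95% of ratios lay between 0.344 and 2.37. Scaled to all UMIs every log2 ratio was 0.70 larger (1.62-fold), which turned the split to 1822 higher and 171 lower. The values below are relative to non-hormone UMIs, and a list median that changes sign under the other scaling is given with both values.

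Genes of the mature β-cell stayed far below Wild-type in the cells that kept Ins1. Mafa stood at 38.4 CPM in Ins1-keeping cells and 554 in Wild-type insulin cells, and was 14.4-fold lower (11.7 to 18.0). Ucn3 was 9.22-fold lower (7.97 to 10.7) at 79.8 against 736 CPM, and Slc2a2, the main glucose transporter of mouse β-cells, 10.7-fold lower (8.93 to 12.9) at 53.4 against 569. G6pc2 was 6.55-fold lower (6.08 to 7.06) and Ero1lb, an oxidase that forms disulfide bonds in proinsulin, 11.1-fold lower (10.2 to 12.2). The fatty acid receptor Ffar1 was 26.8-fold lower (14.5 to 56.1), and Sytl4 (granuphilin, which docks insulin granules) 8.90-fold lower (6.99 to 11.5). With the Ins1 limit at 4.6% the ratio was 0.155 for Mafa and 0.153 for Ucn3. In the list of β-cell maturity and glucose sensing, 15 of 25 measured genes were at least 2-fold lower and 2 at least 2-fold higher (Tmem27 and Fxyd2), with a median log2 ratio of -1.24, beside a background median of -0.04 over 11593 genes (7.22% higher, 7.76% lower).

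Mafa aside, the listed transcription factors lay nearer to Wild-type than the genes of glucose handling. Nkx6-1 was 2.41-fold lower (2.19 to 2.67), Neurod1 2.67-fold lower (2.37 to 3.01), Insm1 stood at a ratio of 0.449 (0.408 to 0.493) and Pdx1 at 0.506 (0.415 to 0.612). Of 24 listed factors 4 were at least 2-fold lower and 2 at least 2-fold higher in Ins1-keeping cells, with a median of -0.31 that was 0.39 when scaled to all UMIs. The 2 higher factors were Bach2 (4.35, 2.28 to 8.39) and Etv1 (2.69, 2.34 to 3.09). Granule genes ran upwards: Chgb (chromogranin B) was 7.02-fold higher (6.84 to 7.21) at 7078 against 1008 CPM, and the peptide-amidating enzyme Pam 2.76-fold higher (2.65 to 2.88), while the convertase Pcsk1 stood at 0.506 (0.461 to 0.554) and Vgf was 0.0690 of Wild-type (0.0251 to 0.152). In that list 4 of 16 genes were higher (Chgb, Pam, Nucb2 and Ptprn2) and Vgf lower, with a median of 0.55.

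Several genes nearly absent from Wild-type insulin cells were found across Ins1-keeping cells. Ptger3, a receptor for prostaglandin E2 that lowers insulin release, had 179 UMIs in 58 of 139 Ins1-keeping cells and 1 UMI in Wild-type insulin cells, a ratio of 616 (109 to 24460). Rcn3 had 149 UMIs against 1 (ratio 513, 90.6 to 20383), Gpr179 139 against 2 (ratio 239, 65.0 to 1994) and the elongation factor Eef1a2 124 against 2 (ratio 213, 57.8 to 1781). Serpine2, a secreted protease inhibitor, had 153 UMIs in 57 Ins1-keeping cells and 4 in Wild-type insulin cells (ratio 132, 50.4 to 489), Basp1, also on the list of miR-7 targets, 254 against 11 (79.5, 43.7 to 161) and the lipid droplet gene Cidea 156 against 7 (76.7, 36.4 to 194). Dlk1, an imprinted gene of the Notch ligand family, had 203 UMIs in 41 Ins1-keeping cells and 0 in Wild-type insulin cells, which makes it 233-fold higher or more when the Wild-type group is given 3 UMIs. Lrp1b was at least 118-fold higher (103 against 0 UMIs). Against Wild-type cells of any Gcg, Sst and Ppy level the ratios were far smaller, at 112 for Ptger3, 35.1 for Rcn3, 52.4 for Gpr179, 38.9 for Eef1a2, 32.0 for Serpine2, 10.9 for Basp1 and 25.6 for Cidea, and without the barcodes called as doublets that of Basp1 was 174. Apart from Rcn3, the ratios of these genes over Ins1-low cells lay between 0.838 (Ptger3) and 1.27 (Cidea). Ptger3 stood at 76.4 CPM in Ins1-keeping and 91.2 in Ins1-low cells, Serpine2 at 65.3 and 74.6, and Dlk1 at 86.6 and 93.0. Rcn3 stood at 63.6 CPM in Ins1-keeping and 35.7 in Ins1-low cells.

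Another set of genes was almost lost. Tmem215 had 11 UMIs in Ins1-keeping cells and 2668 in Wild-type insulin cells, 70.5-fold lower (39.3 to 141), Trpm5, a cation channel of β-cells and taste cells, was 79.6-fold lower (34.0 to 246), Fam151a 85.5-fold lower (33.3 to 314) and Cox6a2, a subunit of cytochrome c oxidase, 41.4-fold lower (27.6 to 65.5). Klhl7 (3 against 991 UMIs) was 96.0-fold lower (32.8 to 466) and Olfm4 (1 against 436 UMIs) 127-fold lower (22.6 to 5016). Plut, a noncoding gene beside Pdx1, had 0 UMIs against 279 and was at least 27.0-fold lower, and where it overlaps Pdx1 reads of the 2 genes may not be told apart. Col6a3 and Sgcz were also at 0 UMIs in Ins1-keeping cells, against 141 and 147 UMIs in Wild-type insulin cells, which makes them at least 13.7-fold and 14.2-fold lower. Nnat, an imprinted gene that aids signal peptide handling, had 1 UMI against 142 (41.3-fold lower, 7.29 to 1641). With the Ins1 limit at 4.6% some of these genes lay less far below Wild-type, at ratios of 0.0470 for Tmem215, 0.0344 for Trpm5, 0.0400 for Fam151a and 0.0622 for Cox6a2. The 11 Tmem215 UMIs came from 6 Ins1-keeping cells, 36.4% of them from 1 cell, and 338 Ins1-low cells held 1 UMI.

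Genes of immature or progenitor cells stood above Wild-type in the Ins1-keeping cells, with 10 of 18 at least 2-fold higher, 4 lower and a median of 1.61. Aldh1a3 was 3.39-fold higher (2.78 to 4.13) at 87.1 against 25.7 CPM, Cd81, a tetraspanin of immature β-cells, 6.99-fold higher (6.43 to 7.59) at 738 against 106, and Gast 9.67-fold higher (5.79 to 16.8). Neurog3, the factor that starts the endocrine lineage, had 13 UMIs in Ins1-keeping cells and 8 in Wild-type insulin cells (ratio 5.59, 2.15 to 15.6). Aldh1a3 was only 1.67-fold higher with the Ins1 limit at 4.6%, and 5.50-fold higher when scaled to all UMIs. The list median was 0.86 with a minimum of 100 UMIs and 0.19 with comparison cells of any Gcg, Sst and Ppy level, and it differed by which members and cells entered. Cck, with 82.6 (21.6 to 701), is a member whose UMIs came almost all from 1 cell.

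Epithelial and mesenchymal genes were both followed by the study in its account of mesenchymal change. Of 38 measured epithelial and junction genes, 11 were at least 2-fold lower in Ins1-keeping cells and 0 higher, with a median of -0.56 that was 0.13 when scaled to all UMIs. Krt8 (a keratin) was 4.25-fold lower (3.88 to 4.68), Cldn4 (a claudin of tight junctions) 5.78-fold lower (4.17 to 8.23), and Ovol2, a factor that keeps the epithelial state, stood at a ratio of 0.232 (0.114 to 0.427). Among 14 mesenchymal genes 5 were higher and 2 lower, with a median of 0.68, led by Serpine2, Basp1 and Epas1 (67 against 3 UMIs, ratio 76.8, 25.2 to 382), while Gng12 was among the lower (ratio 0.333, 0.310 to 0.357). Cdh2 (N-cadherin) stood at 1.54 (1.36 to 1.74). The mesenchymal factor Zeb2 had 3 UMIs in Ins1-keeping cells and 2 in Wild-type insulin cells (ratio 5.16, 0.591 to 61.8). Vim had 1 UMI in each (ratio 3.44, 0.0438 to 270). Both intervals are too wide to place these genes against Wild-type. Against Ins1-low cells the ratios were 0.975 (0.877 to 1.08) for Krt8, 1.13 (0.752 to 1.66) for Cldn4 and 0.730 (0.339 to 1.44) for Ovol2.

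Immediate early genes, which stimulation turns on within minutes to hours, were at least 2-fold lower than in Wild-type insulin cells for 9 of 18 members, below Wild-type for 17 and 2-fold higher for 0, with a median of -0.99. Npas4, induced by calcium entry, was 8.24-fold lower (5.96 to 11.7), Nr4a1 13.5-fold lower (9.07 to 20.9) and Fos stood at 1065 against 2495 CPM. Cholesterol and fatty acid genes had 5 of 24 members lower and 0 higher, with a median of -0.70 that lay near 0 when scaled to all UMIs. Of 25 listed miR-7 targets 5 were lower and 2 higher, with a median of -0.21 that was 0.49 when scaled to all UMIs. Egfr stood at a ratio of 0.328 (0.175 to 0.568) and Klf4 at 0.404 (0.324 to 0.498). In the α lineage list, which also holds Ptger3, 5 of 12 genes were higher and 2 lower with a median of 0.83, and the α-cell markers other than Gcg summed to 4707 CPM in Ins1-keeping cells, 4317 in Ins1-low cells and 2703 in Wild-type insulin cells, nearly all from Ttr (4680, 4292 and 2690 CPM). Irx2 stood at 4.27, 7.05 and 1.86 CPM. Gcg itself had a median share of 0.0118% in Ins1-keeping cells, 0.0121% in Ins1-low cells and 0.00486% in Wild-type insulin cells. The part of α-cell RNA in these values was not tested.

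Among the other lists of the gene list plot, only that of ER folding had a median further than 0.3 from 0 over Wild-type insulin cells. Genes of ER folding and the unfolded protein response had a median of -0.42 that was 0.27 when scaled to all UMIs, with 2 of 30 lower (Ero1lb and Ddit3, a stress-induced factor) and 0 higher. ER translocation stood at 0.27 (0 of 22 either way), exocytosis at -0.13 (2 of 19 higher, 1 lower, and 0.57 when scaled to all UMIs), nuclear genes of oxidative phosphorylation at 0.08 (1 of 40 higher) and glycolysis at 0.18 (4 of 22 higher, 1 lower). TGFβ and BMP signalling stood at -0.02 (2 of 19 higher, and 0.67 when scaled to all UMIs), extracellular matrix at 0.27 (5 of 13 higher, 3 lower), oxidative stress at 0.01 (3 of 25 higher, 4 lower), MHC class I and interferon at -0.04 (1 of 24 higher, 5 lower, and 0.66 when scaled to all UMIs) and p53 and arrest at -0.04 (1 of 19 higher, 5 lower, and 0.66 when scaled likewise). In the matrix list Spp1 (osteopontin) was 14.8 times Wild-type, and in the oxidative stress list Prdx4, a peroxiredoxin of the ER, 6.45 times. Of 20 measured genes that the study names, 3 were higher and 10 lower, with a median of -1.0, and since it named them on Tg7 samples this is no independent evidence. Over Ins1-low cells 1 of its 17 measured genes was 2-fold higher and 0 lower, and the other lists named here had medians between -0.12 and 0.06 there.

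**Figure D3:**
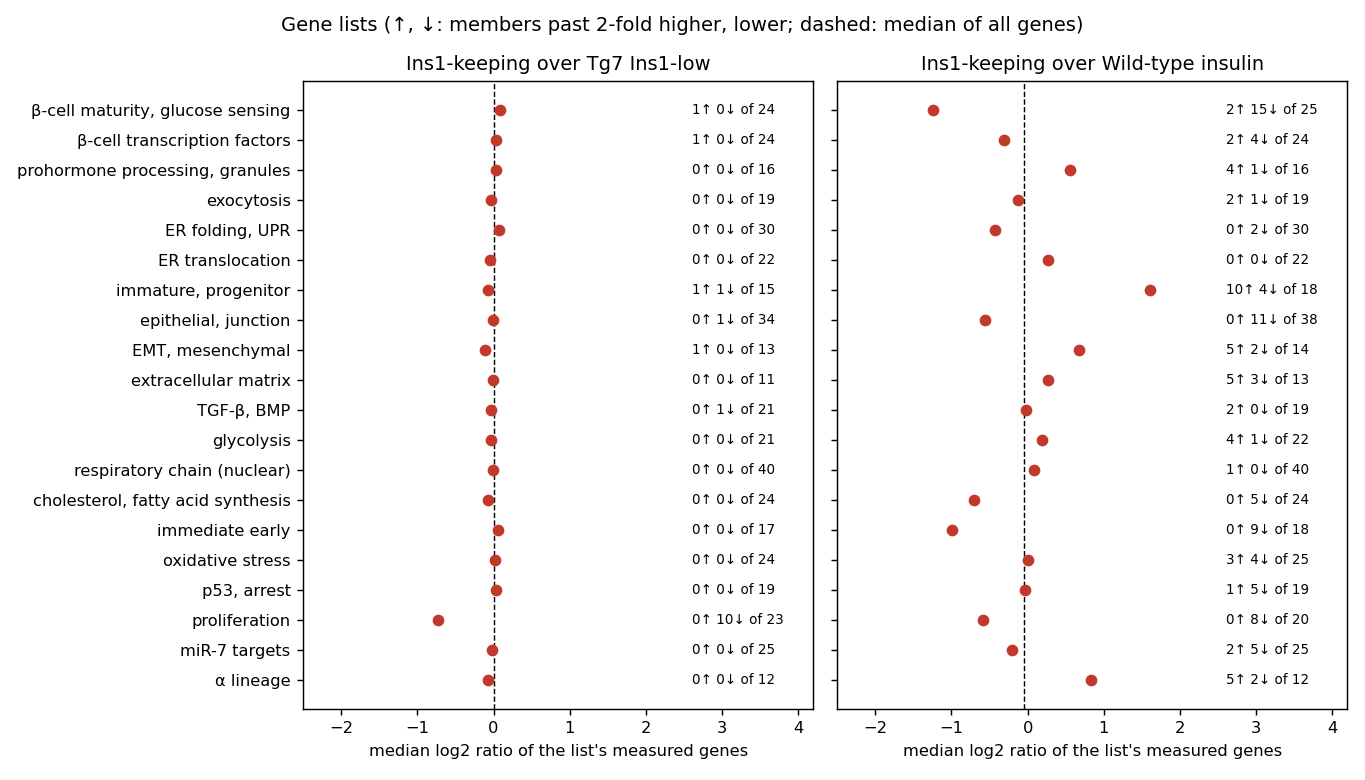
Median log2 ratio of the measured genes of 20 lists in Tg7 Ins1-keeping cells over Tg7 Ins1-low cells (left) and over Wild-type insulin cells (right), with the median of all genes dashed and the number of members past 2-fold in each direction beside each point. On the left all medians but that of proliferation lie near the dashed line, and on the right the list of β-cell maturity lies lowest at -1.24 and the immature list highest at 1.61.

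Within Tg7, levels were followed over 6 bins of Ins1 share, cut at 0.575%, 1.15%, 2.3%, 4.6% and 9.2%, with 103, 101, 134, 99, 33 and 7 cells. The last 3 bins are the Ins1-keeping cells, and Ins1 itself made the bins. Mafa stood at 15.1, 17.4, 19.4, 25.2, 59.4 and 236 CPM from the lowest to the highest bin, beside 554 in Wild-type insulin cells. Its level thus differed little up to an Ins1 share of 4.6% and more beyond, though the highest bin rests on 18 UMIs (interval 140 to 373). Ucn3 stood at 20.2, 35.6, 52.5, 70.5, 121 and 65.5 CPM over the same bins, and the last of these rests on 5 UMIs.

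Among genes with at least 100 UMIs over the 2 bins, the 10 most raised in the highest against the lowest bin were led by β-cell genes. This minimum left out genes scarce in the lowest bin whose contrast was larger, such as Mafa (15.1 and 236 CPM) and Cox6a2 (3.60 and 91.7 CPM, on 5 and 7 UMIs). G6pc2 stood at 179 CPM in the lowest and 812 in the highest bin, 4.55 times as high and found in all 7 cells, against 2040 in Wild-type insulin cells. Slc30a8 (153 and 537), Ero1lb (192 and 563) and Prss53 (117 and 327) followed, then Tcaf1, Gmppb, Thoc2, Dcaf8, Atf5 and Chd8, each with 13 to 20 UMIs in the highest bin. Thoc2 and Chd8 showed no climb over the first 5 bins, at 63.4 to 83.6 and 61.7 to 72.2 CPM. Slc2a2 stayed between 43.0 and 57.1 CPM in the first 5 bins and was at 183 (100.2 to 308) in the highest. Mccc1 climbed through every bin, at 2.16, 9.56, 9.86, 19.7, 34.3 and 39.3 CPM, with 3 UMIs in the last, and stood at 16.1 in Wild-type insulin cells.

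Both sets of 10 were drawn from genes with at least 100 UMIs over the 2 bins. Of the 10 lowest in the highest against the lowest bin, Atf3, Cr1l, Eif1b and Gast had 0 UMIs in the 7 cells, and Hp1bp3, Chordc1, Mef2c, Gatm, Cand1 and Pamr1 had 1 UMI each, against 104 to 212 UMIs in the lowest bin. These contrasts rest on 7 cells and need not hold in the bins between. Below the highest bin Atf3 rose with Ins1, at 119, 144, 177, 185 and 224 CPM. Eif1b stood at 124, 123, 120.5, 122 and 98.3 CPM over those bins. Gast ran against Ins1, at 153, 64.8, 32.8, 30.6, 6.86 and 0 CPM, beside 2.61 in Wild-type insulin cells. Aldh1a3 stood at 116 in the lowest bin, 99.5 at 2.3% to 4.6% Ins1, 41.1 at 4.6% to 9.2% and 52.4 in the highest. Abcc8 was lower in each higher bin, with 336, 275, 233, 219, 162 and 118 CPM, although Wild-type insulin cells held 456. For Gast the interval in the highest bin ran from 0 to 48.3 CPM, too wide to place its level against Wild-type. Among genes raised in Tg7, Tmem27 lay near the Wild-type level in the highest bin, with 2144 CPM in the lowest and 851 (657 to 1085) in the highest bin, against 696 in Wild-type insulin cells. Others did not: Cd81 stood at 754 in the lowest bin and 747 in the highest (106 in Wild-type), Ptger3 at 100.1 and 131 (0.124 in Wild-type), Rcn3 at 39.6 and 78.6 (0.124 in Wild-type) and Chgb at 6921 and 6614 (1008 in Wild-type).

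**Figure D4:**
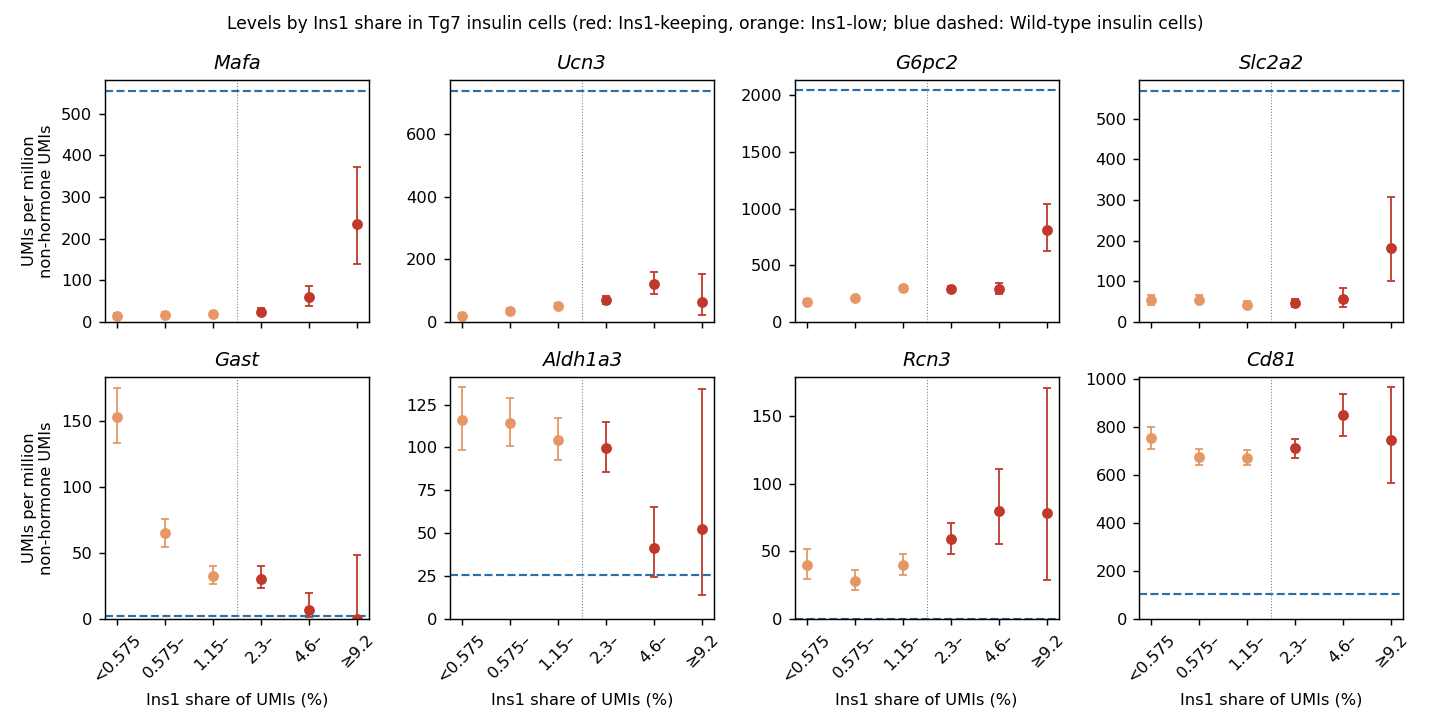
Levels of 8 genes (CPM, of non-hormone UMIs) in Tg7 insulin cells binned by Ins1 share of UMIs (%), with orange points for Ins1-low and red points for Ins1-keeping cells, bars for 95% counting intervals, a dotted line at the limit of 2.3% and a blue dashed line at the Wild-type insulin level. Mafa, G6pc2 and Slc2a2 are highest in the 7 cells of the last bin, Gast declines, and Cd81 and Rcn3 stay above the Wild-type line throughout.

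The 7 cells of the highest bin differed among themselves. The cells with 18.5% and 15.9% Ins1 had 8 and 9 Mafa UMIs, 13 and 14 of G6pc2 and 4 and 3 of Cox6a2, whereas the other 5 cells together had 1 Mafa UMI and none of Cox6a2. Their Ins2 shares were 40.8% and 47.4%, against 19.3% to 33.6% in the other 5 cells. Both held Ptger3 (1 and 3 UMIs), which had 1 UMI in all 471 Wild-type insulin cells, but neither held a UMI of Dlk1, Serpine2, Gpr179 or Basp1, and Cd81 had 0 and 4 UMIs. The cell with 10.8% Ins1 had 1 G6pc2 UMI, no Mafa and 21 of Cd81. A sum of 9 genes that were low in Tg7 (Mafa, Ucn3, Slc2a2, G6pc2, Nupr1, Cox6a2, Tmem215, Fam151a and Trpm5, picked after their values were seen) had a median of 395 CPM in Ins1-keeping cells, 283 in Ins1-low cells and 5489 in Wild-type insulin cells. Only 1 of 139 Ins1-keeping cells and 1 of 338 Ins1-low cells reached 3252 CPM, the 10th percentile of Wild-type insulin cells.

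Shares of cells with a UMI were compared after thinning each cell to 2000 non-hormone UMIs, which left out 1 Ins1-keeping cell. Mafa was then found in 6.52% of Ins1-keeping cells (3.03 to 12.0), 2.45% of Ins1-low cells (1.07 to 4.78) and 59.1% of Wild-type insulin cells (54.5 to 63.6), against 26.6%, 24.6% and 93.6% before thinning. Ucn3 was found in 10.9% (6.21 to 17.3), 5.83% (3.55 to 8.95) and 71.9% (67.6 to 75.9). For both genes the intervals of the Tg7 groups overlapped. Serpine2 was found in 13.8% (8.50 to 20.7) of Ins1-keeping cells, 14.4% of Ins1-low cells and 0 of the Wild-type insulin cells, and Dlk1 in 13.8%, 12.6% and 0. In 31 thinned Tg7 endothelial or macrophage cells, with a median of 4792 UMIs, Mafa, Ucn3 and Dlk1 had no UMI in any cell (a count of 0 allows 9.68%, and the exact interval ends at 11.2%). Serpine2 was in 3 of them (9.68%, 2.04 to 25.8), so the Serpine2 share of Ins1-keeping cells was not distinct from theirs at this depth. Wild-type endothelial or macrophage cells held Serpine2 in 2 of 28 thinned cells, against 0 of 469 Wild-type insulin cells. For Serpine2 such cells thus cannot stand for free RNA, and its free RNA level was not tested.

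The tdTomato reporter had 55 UMIs in Ins1-keeping cells, 143 in Ins1-low cells and 382 in Wild-type insulin cells, or 23.5, 21.9 and 47.4 CPM, a ratio of 1.07 (0.770 to 1.47) over Ins1-low cells. It was among the genes at least 2-fold lower than in Wild-type insulin cells, though close to that limit. Scaling to all UMIs makes its ratio over Wild-type 1.62 times as large.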

How the data were processed

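Islets were measured by droplet single-cell RNA-seq (10x Genomics), 1 library per genotype. The values the authors deposited are raw counts of UMIs for each gene in each barcode. The submitters' processing notes name bcl2fastq 2.17.1.14, Cell Ranger 3.0.2, STAR and mm10, but no annotation version. The study removed doublets and integrated the libraries, whereas here raw counts were used, no barcode was removed as a doublet, and leaving out the barcodes that Scrublet (scanpy 1.11.5) called was an alternative. Cell classes are rebuilt by hormone shares and can differ from the study's.

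Counts were summed per group and scaled to non-hormone UMIs. Ratios have conditional exact binomial intervals and shares exact Clopper-Pearson intervals, both at 95%. Members, bins and the 34 gene lists were chosen with earlier results of these data known. A gene counted as past 2-fold at a ratio of 2 or more, or 0.5 or less, with at least 100 UMIs over both groups (20 for lists), leaving out hormone and mitochondrial genes. A group with 0 UMIs was given a floor of 3 UMIs. Genes were named if they stand in the study's text, had the 10 highest or lowest ratios per comparison, or were among up to 6 members per list. Those named by ratio or list had UMIs in at least 10 cells of the higher group and no cell with over 25% of that group's UMIs. The 10 highest and 10 lowest of the bin contrast were also named, without these limits on cells. The ratio script was tested on simulated data. TMM factors came from edgeR 4.0.16 in R 4.3.3. Some genes that this rule takes are not reported here.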

Additional observations from a re-analysis of the deposited data

How the results depend on the processing

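No paired analysis was possible because each genotype is 1 library with no replicate numbers. The number of Ins1-keeping cells was 273 with an Ins1 limit of 1.15% and 40 with 2 times the limit. Over Ins1-low cells, the 4 genes higher and 5 lower became 1 and 11 when scaled to all UMIs, 11 and 18 with every cell weighted alike, 73 and 191 with a minimum of 20 UMIs, and 49 and 261 with 2 times the limit. Only the higher count moved with TMM factors (2) and in cells of 10000 to 60000 UMIs (2), and only the lower count with a limit of 1.15% (3), with comparison cells of any Gcg, Sst and Ppy (46) and without cells that held cell division genes (3), a setting chosen after seeing the data. Over Wild-type insulin cells, 338 higher and 555 lower became 1822 and 171 when scaled to all UMIs and 837 and 899 with 20 UMIs, and the lower count was 848 with 2 times the limit. The causes were not tested, but a smaller minimum admits more genes and 2 times the limit leaves 40 cells. Of 240 recomputed gene ratios over Ins1-low cells 221 stayed within their counting interval, and of 257 over Wild-type insulin cells 223, and 0 of those past 2-fold changed direction, though some calls were lost, as given beside the genes. The counts of 4 and 5 genes are small, and Mafa in the highest Ins1 bin rests on 18 UMIs, so depth limits what can be read there. Leaving out the 7 highest cells, likewise chosen after seeing the data, gave 3 and 6 genes.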
